A study of Mus musculus with 12 samples.

Results

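Chac1, Atf4, Ddit3, Trib3, Asns, Sesn2, Hspa5, Dnajb9, Herpud1 and Xbp1 are genes of the unfolded protein response and of the stress response driven by the transcription factor ATF4. They are 10 of the 18193 genes measured in mouse liver on 12 Affymetrix Mouse Genome arrays. Each gene was found by its symbol in the array annotation and read from the probe set, that is the group of short oligonucleotides for 1 transcript, with the highest mean over all arrays. All 10 were measured, and no filter on low values was applied. Chac1 was chosen by its values in shLFAR1+CCl4 against NC+CCl4, where it was higher, and the other genes were added as its pathway. For Chac1 the values of NC+CCl4 and shLFAR1+CCl4 are therefore a description without a test.

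The livers came from male Balb/c mice that were 8 weeks old when obtained, before acclimatization and the injections, and the study asked how the long noncoding RNA lnc-LFAR1 takes part in liver fibrosis. In the NC group mice received olive oil and a control lentivirus (Lenti-NC), and in the shLFAR1 group olive oil and a lentivirus (Lenti-shLFAR1) whose short hairpin RNA silences lnc-LFAR1. The groups NC+CCl4 and shLFAR1+CCl4 received the same viruses and 5% (v/v) carbon tetrachloride (CCl4) in olive oil at 0.3 ml/kg, into the peritoneum 3 times per week. The virus went into the tail vein 2 weeks after the injections began and the injections went on for 4 more weeks, so every mouse carried a lentivirus and had repeated injections. Each group held 10 mice, of which 3 livers were measured on 1 array each. The virus was not limited to a cell type, 1 hairpin was used, and the level of lnc-LFAR1 itself was not analysed here. The hepatocyte markers Alb, Ttr and Apoa1 lay at 13.9 log2 units or higher on every array.

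Proteins that fail to fold in the endoplasmic reticulum (ER) switch on 3 sensors, IRE1, PERK and ATF6. IRE1 splices Xbp1 mRNA into the form that codes for an active transcription factor, and ATF6 and XBP1 raise chaperone and degradation genes such as Hspa5, Dnajb9 and Herpud1. PERK and other kinases phosphorylate eIF2α, which slows translation in general but favours that of Atf4, and ATF4 raises genes of amino acid supply and of cell death, among them Asns, Ddit3, Trib3, Chac1 and Sesn2. The liver secretes much of the protein of blood plasma and relies on this system. The arrays read mRNA, so neither the splicing of Xbp1 nor the translation of Atf4 can be read from them.

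The sequences upstream of the genes were searched for motifs of ATF4 and of the chaperone branch. The RefSeq promoter table (GRCm38.p6) held all 10 genes, and the 250 bases before each start were searched on both strands for 5 motifs. The C/EBP-ATF site, spelled TGATGNAA, was found upstream of Asns, Chac1 and Herpud1 and in 3.45% of the 32851 promoters of the table. The CRE-like site TGACGCAA was found upstream of Chac1, Dnajb9 and Herpud1 and in 0.438% of the promoters. The ER stress response element, spelled as CCAAT and CCACG with 9 bases between them, was found for Hspa5 and in 0.113%, and its second form (ERSE-II, ATTGG and CCACG with 1 base between them) for Herpud1 and in 0.0304%. The core of the unfolded protein response element, TGACGTGG, was found in 0.563% of promoters and upstream of none of these genes. Atf4, Ddit3, Trib3, Sesn2 and Xbp1 held none of the 5 motifs in this window. No matches overlapped, and a match to these letters is a description of the sequence and not a bound site. Chac1 (chr2:119350992-119351241, plus strand) and Herpud1 (chr8:94386179-94386428, plus strand) are shown whole, since they are the genes on which the results turn, 5′ to 3′ along the gene with the motif matches in capitals. In Chac1 the CRE-like site begins 250 bases and the C/EBP-ATF site 193 bases before the start, and in Herpud1 the CRE-like, C/EBP-ATF and ERSE-II matches begin 130, 112 and 52 bases before it.
Chac1: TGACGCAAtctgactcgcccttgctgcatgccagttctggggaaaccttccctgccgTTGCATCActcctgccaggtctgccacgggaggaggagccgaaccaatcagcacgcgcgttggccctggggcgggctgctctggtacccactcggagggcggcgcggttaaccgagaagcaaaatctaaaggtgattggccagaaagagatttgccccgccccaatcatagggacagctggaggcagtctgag
Herpud1: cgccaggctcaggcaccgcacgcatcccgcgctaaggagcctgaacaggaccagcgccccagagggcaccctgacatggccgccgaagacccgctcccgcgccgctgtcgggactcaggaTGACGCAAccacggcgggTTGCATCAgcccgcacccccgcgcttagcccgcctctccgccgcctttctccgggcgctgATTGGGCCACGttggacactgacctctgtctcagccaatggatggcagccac
The matches of Asns (chr6:7693217-7693240, minus strand), Dnajb9 (chr12:44210193-44210216, minus strand) and Hspa5 (chr2:34772017-34772051, plus strand) are shown with the bases around them.
Asns: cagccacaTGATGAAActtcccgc
Dnajb9: gacggaagTGACGCAAggaccaaa
Hspa5: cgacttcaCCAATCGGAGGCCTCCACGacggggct

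Several facts of the arrays touch the results. On the first principal component of all genes, which held 56.3% of the variance, the oil arrays lay between -26.7 and -20.4 and the NC+CCl4 arrays between 34.8 and 48.8. Arrays 1 and 2 of shLFAR1+CCl4 lay at -6.80 and -9.66 but array 3 at 39.2, among the NC+CCl4 arrays. Array 1 of NC+CCl4 had the largest difference between the 3′ and 5′ control probe sets of Gapdh, at 0.716 log2 units against -0.205 to 0.0333 on the others. Such a difference is read as a sign of RNA quality on arrays of 3′ ends like these, but the labels name a labelling kit for whole transcripts, and which was used was not settled. Several results that rest on these arrays are also given without them.

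**Figure D1:**
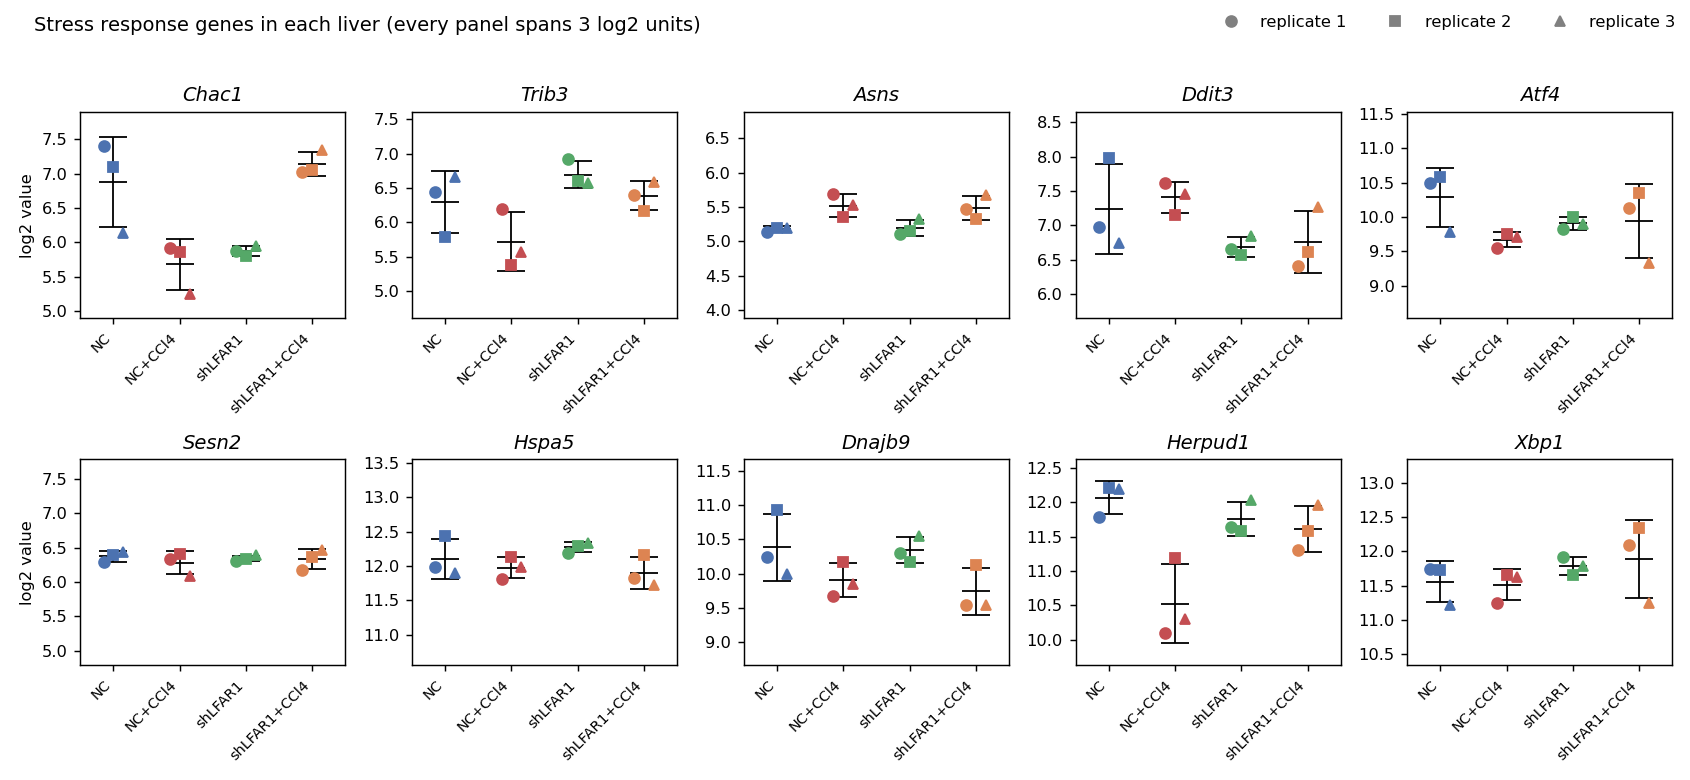
Log2 value (vertical axis) of each of the 10 genes in the 4 groups (horizontal axis). Points are single livers, with the shape giving the replicate number, and the bars give the mean and SD of 3 arrays. Herpud1 is lowest in NC+CCl4, and Chac1 is high in shLFAR1+CCl4 and on NC arrays 1 and 2.

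In the livers given the control virus, CCl4 was accompanied by a lower level of Herpud1, and no other of these genes was called. Of 9 genes tested, 1 was called lower and 0 higher at an adjusted p under 0.05 (limma), beside 13.1% of all genes called in either direction. At an unadjusted p under 0.05, 4 of the 9 passed, beside 27.1% of all genes. Their median log2 change was -0.13, beside -0.05 over all genes. This comparison and that of both CCl4 groups share the NC+CCl4 arrays, so their values are set side by side below and not read against each other.

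Herpud1 codes for a membrane protein of the ER that helps to assemble the machinery for degrading misfolded proteins. Its log2 values were 11.79, 12.21 and 12.20 in NC, 10.10, 11.18 and 10.29 in NC+CCl4, 11.64, 11.59 and 12.03 in shLFAR1, and 11.30, 11.57 and 11.96 in shLFAR1+CCl4. Every NC+CCl4 array lay below every array of the other groups. In NC+CCl4 against NC the gene fell by 1.54 ± 0.25 (SE) on the log2 scale, 2.90-fold (adjusted p = 0.00273). Its second probe set fell by 1.45 on the log2 scale (adjusted p over all probe sets = 0.00422). The call held without any single array of both groups, with log2 changes between -1.87 and -1.33.

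In shLFAR1+CCl4 the level of Herpud1 was 1.09 ± 0.25 log2 units above that in NC+CCl4, with no overlap of the arrays, but the difference was not called (adjusted p = 0.0887). Without array 2 of NC+CCl4, the highest of that group, it was 1.41 and passed (adjusted p = 0.00364), and without array 3 of shLFAR1+CCl4 it was 0.91 (adjusted p = 0.0570). Without array 1 of NC+CCl4 it was 0.87 (adjusted p = 0.165), and without that array and array 3 of shLFAR1+CCl4 together 0.70 (adjusted p = 0.129). Against shLFAR1 the gene differed by -0.14 ± 0.25 log2 units in shLFAR1+CCl4 (adjusted p = 0.901). The CCl4 effect under the knockdown virus minus that under the control virus was 1.40 ± 0.36 log2 units (unadjusted p = 0.00189, adjusted p = 0.306), so a difference between the viruses in the response of Herpud1 was not called on all 12 arrays, beside 0.022% of all genes called for this interaction. Without array 2 of NC+CCl4 it was 1.73 and passed (adjusted p = 0.0205), and without array 1 of NC+CCl4 it was 1.18 (adjusted p = 0.340), without array 3 of shLFAR1+CCl4 1.22 (adjusted p = 0.0881) and without both 1.01 (adjusted p = 0.121).

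Markers of some other cells moved in the same comparison. In NC+CCl4 against NC, 7 of 8 stellate cell and fibroblast markers, 6 of 8 macrophage markers and 4 of 4 markers of cycling cells were called higher, and 2 of 8 hepatocyte markers were called lower. Of all genes, 7.66% were called higher and 5.41% lower. Of 6 endothelial and 4 cholangiocyte markers 0 were called. Called higher were 2 of 5 neutrophil, 1 of 7 plasma and B cell and 1 of 6 T cell markers. Of 3 pancreatic acinar cell markers 1 was called lower. The mean log2 level of the stellate and fibroblast markers, minus the NC mean, was -0.172 to 0.101 in NC, 2.10 to 2.32 in NC+CCl4, -0.270 to 0.339 in shLFAR1 and 0.581 to 1.87 in shLFAR1+CCl4. For the macrophage markers it was 1.75 to 2.45 in NC+CCl4 and 0.693 to 2.14 in shLFAR1+CCl4, and for the hepatocyte markers -0.279 to -0.0952 and -0.178 to 0.0721. The hepatocyte markers did not move together. In NC+CCl4 against NC their log2 changes ran from -1.55 for Pck1 to 0.18 for Ttr, with a median of -0.05. Alb, Ttr and Cps1 had higher means in NC+CCl4 than in NC, and the other hepatocyte markers had lower ones. No marker was at 0, since the values carry no detection calls. The part of cell composition in the values of these genes was not tested, and in whole liver fewer cells of a type and less RNA per cell cannot be told apart.

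Hspa5 codes for BiP, the main chaperone of the ER lumen and a standard readout of ER stress. Its log2 values were 11.99, 12.44 and 11.89 in NC, 11.82, 12.13 and 11.98 in NC+CCl4, 12.19, 12.29 and 12.34 in shLFAR1, and 11.82, 12.15 and 11.72 in shLFAR1+CCl4. NC overlapped with every group, while the shLFAR1 arrays lay above all CCl4 arrays. The shLFAR1+CCl4 arrays were lower than the shLFAR1 arrays by 0.38 ± 0.14 log2 units (adjusted p = 0.353). In NC+CCl4 against NC the log2 change was -0.13, with a 95% confidence interval of -0.44 to 0.18, so a change of 2-fold in either direction lay outside the interval.

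Dnajb9 codes for ERdj4, a co-chaperone of BiP that acts in ER-associated degradation. Its log2 values were 10.24, 10.93 and 9.99 in NC and 9.68, 10.17 and 9.85 in NC+CCl4, a difference of -0.48 ± 0.23 (adjusted p = 0.199). With the knockdown virus they were 10.30, 10.17 and 10.54 in shLFAR1 and 9.54, 10.13 and 9.54 in shLFAR1+CCl4, a difference of -0.60 (adjusted p = 0.354). The arrays overlapped in the first comparison and not in the second. Dnajb9 and Hspa5 were the members whose arrays in shLFAR1+CCl4 all lay below those in shLFAR1, 2 of the 9 tested, beside 11.7% of all genes. Of all genes, 0.407% were called in either direction in that comparison, and 0 of the 9 tested here, while 3 of the 9 and 10.8% of all genes had an unadjusted p under 0.05.

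Xbp1, whose product drives chaperone, degradation and secretory genes, had log2 values of 11.74, 11.72 and 11.22 in NC, 11.25, 11.66 and 11.63 in NC+CCl4, 11.92, 11.65 and 11.79 in shLFAR1, and 12.09, 12.34 and 11.25 in shLFAR1+CCl4. All groups overlapped. The 2 higher arrays of shLFAR1+CCl4 stood above every other array, and array 3, the one placed among the NC+CCl4 arrays by all genes, stood with the low ones. The difference from NC+CCl4 was 0.38 log2 units (adjusted p = 0.513) and, without array 3 of shLFAR1+CCl4, 0.70 (adjusted p = 0.0237). Without that array and array 1 of NC+CCl4 together it was 0.57 (adjusted p = 0.0514).

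Atf4, the transcription factor of the amino acid branch, had log2 values of 10.49, 10.58 and 9.79 in NC and 9.55, 9.75 and 9.71 in NC+CCl4. The NC+CCl4 arrays were all lower, by 0.62 ± 0.24 log2 units, but the difference was not called (adjusted p = 0.118). Without array 3 of NC, the lowest of its group, the change was -0.87 and passed (adjusted p = 0.0402). It also passed, at an unchanged -0.62, when array 3 of shLFAR1+CCl4 was left out of the fit of all groups (adjusted p = 0.0273), which lowered the shared estimate of the spread. On the probe sets used, Atf4 and Herpud1 made 2 of the 9 tested genes whose NC+CCl4 arrays all lay below the NC arrays, beside 15.8% of all genes. On another probe set of Atf4, with a mean of 8.17, the change was -0.60 (adjusted p over all probe sets = 0.115). There the groups overlapped, with NC array 3 at 8.02 and NC+CCl4 array 3 at 8.03. On the probe set used, the values in shLFAR1 were 9.82, 10.01 and 9.90, and in shLFAR1+CCl4 10.14, 10.35 and 9.33. These overlapped, and array 3 of shLFAR1+CCl4 was the lowest of all 12. Against NC+CCl4 the log2 difference was 0.27 (adjusted p = 0.692). Without array 3 of shLFAR1+CCl4 it was 0.58, and no alternative called it.

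Chac1 codes for an enzyme that breaks down glutathione and is a target of ATF4. Its log2 values were 7.40, 7.10 and 6.14 in NC, 5.92, 5.86 and 5.25 in NC+CCl4, 5.87, 5.80 and 5.95 in shLFAR1, and 7.02, 7.05 and 7.35 in shLFAR1+CCl4. The shLFAR1+CCl4 arrays were all above those of NC+CCl4 and shLFAR1 and lay within the range of NC. The group means were 6.88 ± 0.66 (SD, n = 3) in NC, 5.68 ± 0.37 in NC+CCl4, 5.87 ± 0.08 in shLFAR1 and 7.14 ± 0.18 in shLFAR1+CCl4. The difference that chose the gene, shLFAR1+CCl4 against NC+CCl4, was 1.46 log2 units, beside 0.291% of all genes called in that comparison, from which nothing is read for Chac1. Against the other groups the gene was described only, at -1.20 log2 units in NC+CCl4 against NC and 1.27 in shLFAR1+CCl4 against shLFAR1. In oil-treated liver NC lay above shLFAR1. The order in CCl4-treated liver was fixed by the choice of Chac1, so no reversal between oil and CCl4 is read.

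The difference between shLFAR1 and NC did not choose Chac1, although the fit of all 12 arrays takes part of its estimate of the spread from the arrays that did. There the gene was 1.01 ± 0.27 log2 units lower on average, written as a log2 change of -1.01, and all 3 shLFAR1 arrays lay below all 3 NC arrays, as for 4.76% of all genes. It was not called (unadjusted p = 0.00283, adjusted p = 1). With limma on the 6 arrays of these groups alone the SE was 0.26 (unadjusted p = 0.00317, adjusted p = 0.493), and the methods' t-test on the same arrays gave an unadjusted p of 0.0583. In this comparison 0% of all genes were called by limma, 504 of them (2.77%) had an unadjusted p under 0.05, and the methods' t-test with Benjamini-Hochberg adjustment called 0 as well. Without array 3 of NC the log2 change of Chac1 was -1.38 (adjusted p = 0.315). None of the 10 genes was called, and Chac1 was the 1 with an unadjusted p under 0.05 by limma.

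Trib3 codes for a pseudokinase that restrains ATF4 and AKT signalling. Its log2 values were 6.43, 5.78 and 6.65 in NC, 6.20, 5.38 and 5.57 in NC+CCl4, 6.92, 6.60 and 6.57 in shLFAR1, and 6.40, 6.17 and 6.59 in shLFAR1+CCl4. The NC+CCl4 arrays were on the whole the lowest but overlapped with NC and with shLFAR1+CCl4. The log2 change was -0.57 ± 0.24 in NC+CCl4 against NC (adjusted p = 0.148) and 0.67 ± 0.24 in shLFAR1+CCl4 against NC+CCl4 (adjusted p = 0.232). Without array 1 of NC+CCl4, the array with the largest Gapdh 3′ to 5′ difference, the first was -0.81 and passed (adjusted p = 0.0427).

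Asns codes for asparagine synthetase, the classic gene of the amino acid response. It ran from 5.13 to 5.20 log2 units in NC and from 5.35 to 5.68 in NC+CCl4. All NC+CCl4 arrays were higher, by 0.34 ± 0.13, but not called (adjusted p = 0.101), and Asns was the 1 gene of the 9 tested whose arrays lay wholly above NC, beside 13.8% of all genes. Its second probe set differed by 0.82 log2 units (adjusted p over all probe sets = 0.0183), and with the mean of both the change was 0.58 and passed (adjusted p = 0.0218). That second probe set was low, with a mean of 3.30 over all arrays. In NC+CCl4 it read 4.23 on array 1, the array with the largest Gapdh 3′ to 5′ difference, and 3.43 and 3.42 on the others. On the first probe set the values in shLFAR1 were 5.11, 5.15 and 5.32 and in shLFAR1+CCl4 5.47, 5.32 and 5.67, which overlapped, with a difference of 0.30 (adjusted p = 0.431). Between the CCl4 groups it was -0.03. On the second, low probe set the shLFAR1+CCl4 arrays read 3.71, 3.48 and 3.88 and did not overlap with shLFAR1, at 2.82, 3.17 and 2.82. That difference was 0.75 log2 units and not called (adjusted p over all probe sets = 0.177).

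Ddit3 codes for CHOP, the factor of stress-induced cell death. Its log2 values were 6.97, 7.98 and 6.75 in NC, 7.61, 7.16 and 7.46 in NC+CCl4, 6.65, 6.57 and 6.85 in shLFAR1, and 6.40, 6.62 and 7.26 in shLFAR1+CCl4. All groups but 1 pair overlapped, the shLFAR1 arrays lying below the NC+CCl4 arrays. Ddit3 was 0.17 log2 units higher in NC+CCl4 than in NC (adjusted p = 0.751), a value without a call. In shLFAR1+CCl4 against NC+CCl4 the log2 change was -0.65 ± 0.29 (unadjusted p = 0.0441, adjusted p = 0.338). Its sign was opposite to that of Trib3, which was not called either. The sign of Chac1 there was fixed by its choice and is not compared. Without array 3 of shLFAR1+CCl4 the change of Ddit3 was -0.90, and no alternative called it.

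Sesn2, which codes for a sensor of leucine that restrains mTORC1, had the narrowest range. Its values ran from 6.10 to 6.46 log2 units over all 12 arrays, the groups overlapped, and the change was between -0.09 and 0.05 in the 4 comparisons. Of the 9 genes tested in shLFAR1+CCl4 against NC+CCl4 none was called, 3 had an unadjusted p under 0.05 (Herpud1, Trib3 and Ddit3) beside 14.2% of all genes, and Herpud1 was the 1 whose arrays did not overlap, beside 7.20% of all genes higher in that way. By the methods' t-test, at its fold and unadjusted p threshold, Herpud1 passed and after Benjamini-Hochberg adjustment none did.

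**Figure D2:**
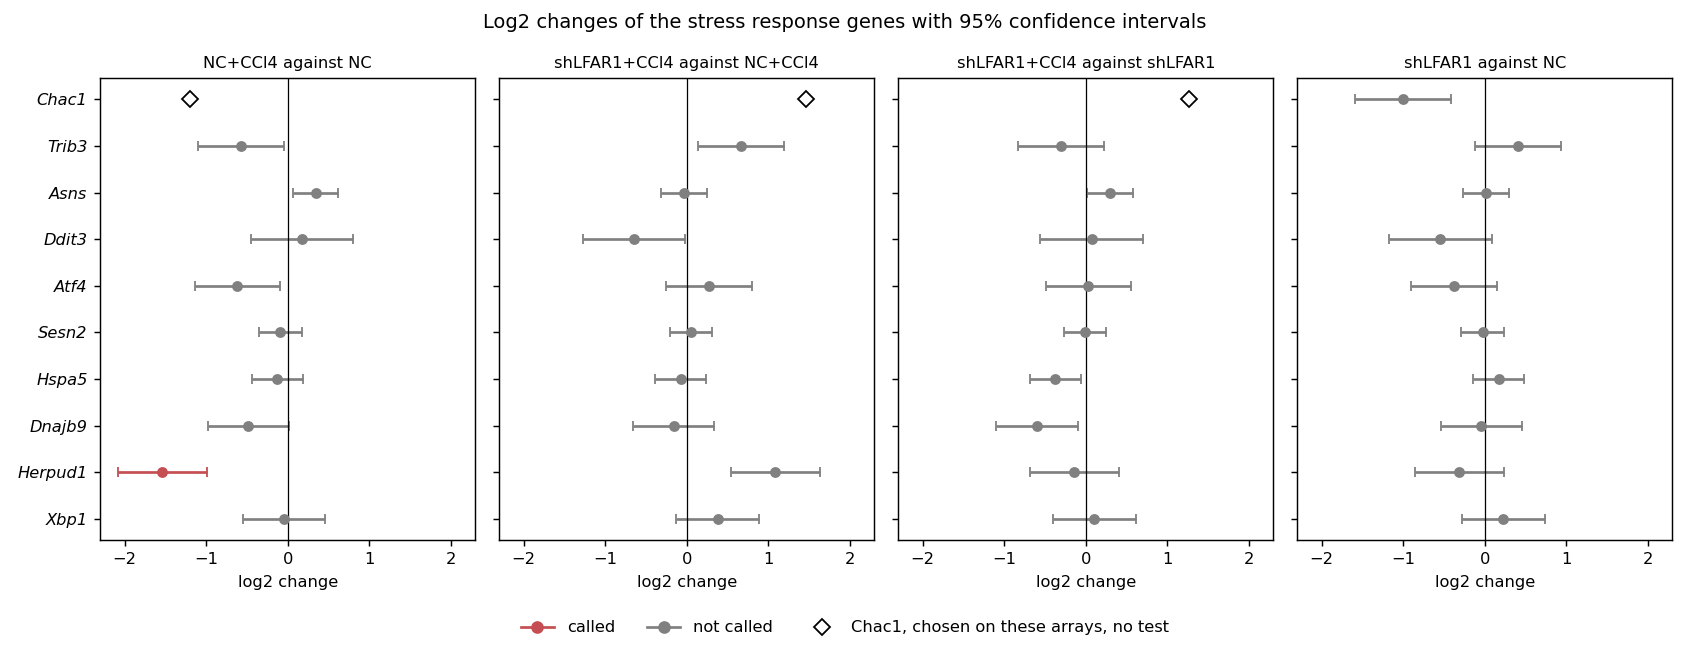
Log2 change (horizontal axis) of each gene in 4 comparisons, with 95% confidence intervals from limma. Red points are called at an adjusted p under 0.05, grey points are not, and open diamonds are Chac1 where it was not tested. Herpud1 in NC+CCl4 against NC, at -1.54, is the only called point.

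The ATF4 targets and the chaperone genes were set against each other on each array, as the mean log2 value of Chac1, Trib3, Asns and Ddit3 and that of Hspa5, Dnajb9 and Herpud1, each minus its mean in NC. The chaperone mean was -0.717 ± 0.324 (SD, n = 3) in NC+CCl4, -0.435 ± 0.198 in shLFAR1+CCl4 and -0.0624 ± 0.16 in shLFAR1. Every CCl4 array was below the lowest oil array. In NC+CCl4 the log2 changes behind it were -1.54 for Herpud1, a degradation gene and not a chaperone, -0.48 for Dnajb9 and -0.13 for Hspa5. The arrays of Dnajb9 and of Hspa5 overlapped between NC and NC+CCl4. The same mean over 22 further ER chaperones and folding enzymes was -0.0267 in NC+CCl4, -0.0636 in shLFAR1+CCl4 and 0.188 in shLFAR1. The mean of the ATF4 targets was -0.314 ± 0.236 in NC+CCl4, -0.283 ± 0.074 in shLFAR1 and 0.0485 ± 0.238 in shLFAR1+CCl4. This mean holds Chac1, which was chosen for its rise in shLFAR1+CCl4, and without Chac1 it was -0.0186 ± 0.268, -0.0422 ± 0.0752 and -0.0229 ± 0.259, so the groups then differed by less than the spread between arrays.

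The difference, ATF4 targets minus chaperone genes, was 0.403 ± 0.523 in NC+CCl4, with single arrays at 0.94, -0.10 and 0.36. It was -0.221 ± 0.115 in shLFAR1 and 0.484 ± 0.326 in shLFAR1+CCl4, where the arrays were at 0.56, 0.13 and 0.77. The CCl4 arrays spread widely and overlapped between the viruses, and the highest values were on NC+CCl4 array 1 and shLFAR1+CCl4 array 3. Without NC+CCl4 array 1 the mean of that group was 0.133 and without its array 2 it was 0.655, and without shLFAR1+CCl4 array 3 that of its group was 0.342. In shLFAR1 it was -0.0867 when NC array 1 was left out. With Chac1 left out of the targets the difference was 0.699 in NC+CCl4, 0.0203 in shLFAR1 and 0.412 in shLFAR1+CCl4.

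**Figure D3:**
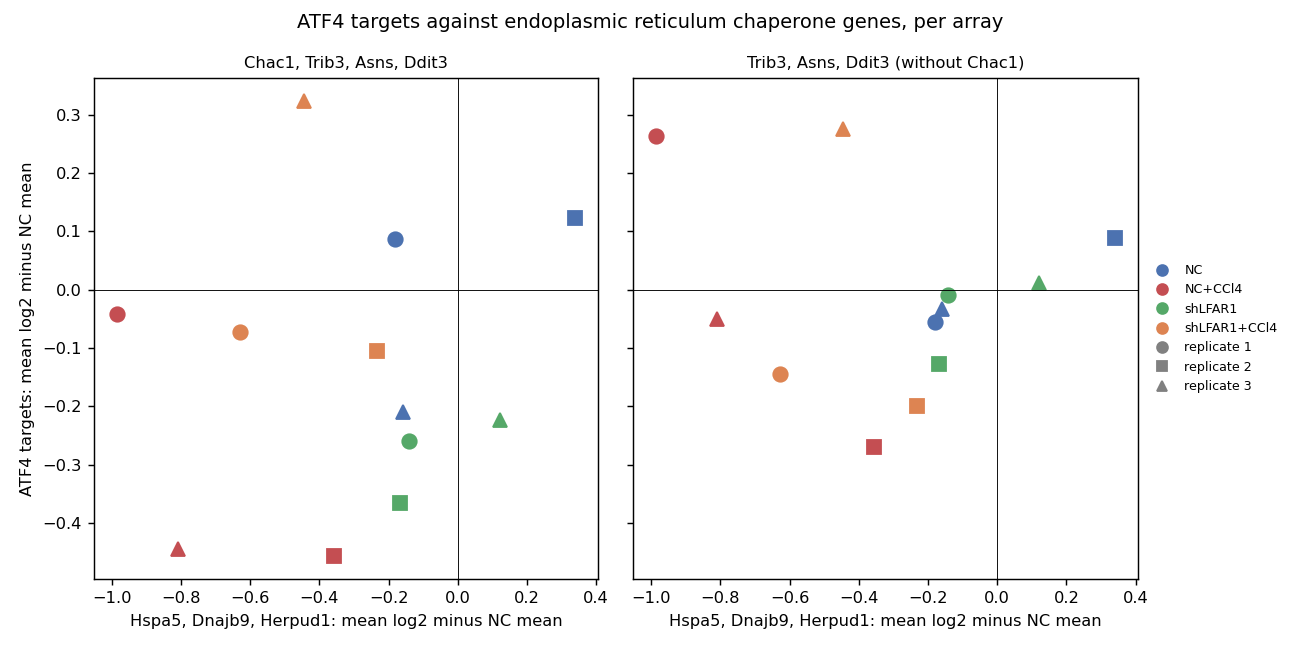
Mean log2 value minus the NC mean of the ATF4 targets (vertical axis) against that of the chaperone genes (horizontal axis) on the 12 arrays, with colour for the group and shape for the replicate number, with Chac1 (left) and without it (right). All 6 CCl4 arrays lie to the left of the oil arrays, on an axis that includes the degradation gene Herpud1. The heights of the groups overlap.

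Within the groups the genes did not vary as a single block. After the group means were removed, the highest of the 45 correlations over 12 arrays (8 residual degrees of freedom) was between the chaperone genes Hspa5 and Dnajb9, with Pearson's r of 0.952. Atf4 and Xbp1 followed at 0.91, and at 0.771 over the 9 arrays without shLFAR1+CCl4. Trib3 ran against the chaperones, with r of -0.917 to Hspa5 and -0.845 to Dnajb9, and these were -0.95 and -0.86 without shLFAR1+CCl4. Herpud1 was closest to Sesn2, at 0.712, and had r of 0.321 to Hspa5. Atf4 had r of 0.292 to Chac1, -0.0672 to Ddit3, -0.656 to Trib3 and -0.608 to Asns, and 0.73 to Hspa5. Without shLFAR1+CCl4 these became 0.725, 0.543, -0.707, -0.255 and 0.712, so the low values of Chac1 and Ddit3 rested on that group. These values share each array's RNA and its quality, and they are given as a description.

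**Figure D4:**
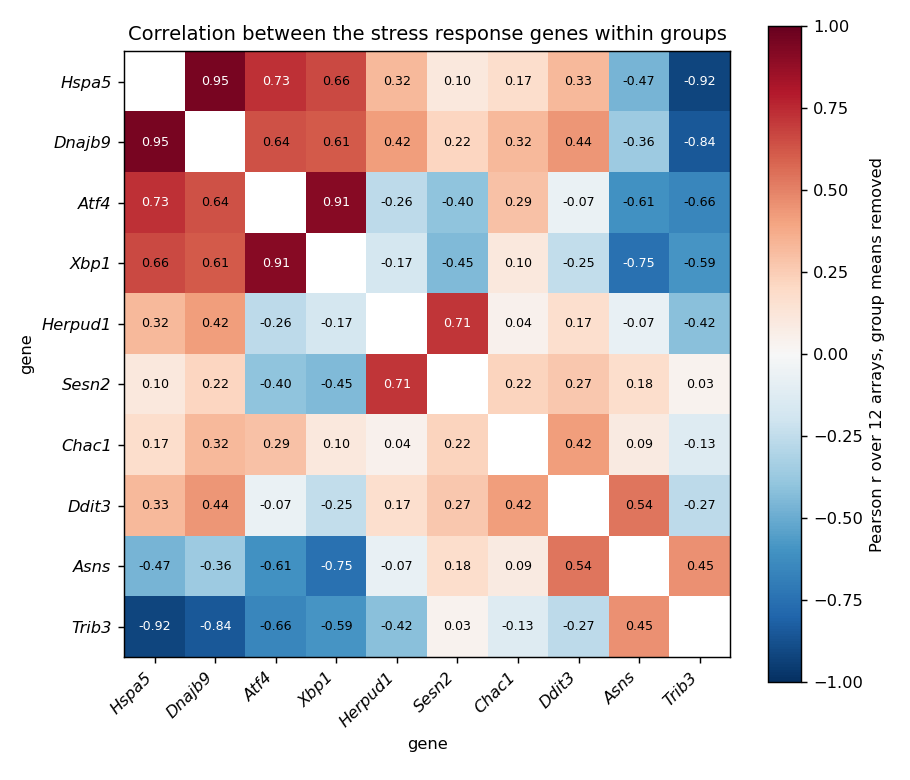
Pearson's r between the 10 genes (both axes) over 12 arrays after removal of the group means, from -1 (blue) to 1 (red). Hspa5 and Dnajb9 (0.95) and Atf4 and Xbp1 (0.91) are the highest pairs, and Trib3 with Hspa5 (-0.92) the lowest.

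Over all genes, the 5 with the highest within-group r to Chac1 on the 12 arrays were Kdm6b (0.969), Gapvd1 (0.958), Zfp235 (0.952), Phf21a (0.946) and Chmp1a (0.945). In each of these genes, as in Chac1, array 3 was the lowest of NC and of NC+CCl4. Of the 5, Zfp235 also had its shLFAR1+CCl4 arrays, at 6.10, 6.12 and 6.16 log2 units, above all arrays of NC+CCl4 (5.91, 5.85 and 5.68) and of shLFAR1 (6.08, 5.93 and 5.99). In the other 4 genes the CCl4 groups overlapped.

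The wider lists of the response showed which branches held called genes in NC+CCl4 against NC. Of 21 further targets of ATF4 and CHOP, 4 were called higher and 0 lower, beside 7.66% of all genes higher and 5.41% lower. These shares of all genes stand beside every further list in this comparison. They were Ddit4, an inhibitor of mTORC1, at 1.73 ± 0.51 log2 units, the stress factor Atf3 at 1.52 ± 0.35, the chromatin protein Nupr1 at 1.19 ± 0.27 and the cell death gene Bbc3 at 0.82 ± 0.17. The median of this list was -0.04, beside -0.05 over all genes.

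Of 12 genes of amino acid and one-carbon synthesis, 3 were called higher and 0 lower. Psat1, an enzyme of serine synthesis, rose by 1.74 ± 0.46, the mitochondrial folate enzyme Aldh1l2 by 1.14 ± 0.28 and the mitochondrial enzyme Pck2 by 1.12 ± 0.24 log2 units. Psat1 had log2 values of 3.15, 2.80 and 3.09 in NC, 5.46, 3.96 and 4.85 in NC+CCl4, 3.02, 2.93 and 2.90 in shLFAR1, and 2.70, 2.70 and 4.66 in shLFAR1+CCl4. In the last group array 3 alone stood near NC+CCl4, and the same held for Atf3 (4.60, 4.98 and 6.43) and for Ddit4 (6.86, 6.28 and 8.61). Psat1 differed by -1.40 ± 0.46 in shLFAR1+CCl4 against NC+CCl4 (adjusted p = 0.182), Atf3 by -1.01 (0.212 as adjusted p) and Ddit4 by -1.01 (0.400 as adjusted p).

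Of 10 amino acid transporters, 3 were called higher, Slc1a4 at 0.97, Slc1a5 at 0.71 and Slc7a1 at 0.57 log2 units, and 2 were called lower. Slc38a2, the transporter of small neutral amino acids known as SNAT2, fell by 1.30 ± 0.19 (adjusted p = 0.00172), and the glycine transporter Slc6a9 fell by 0.60 log2 units. Slc38a2 had log2 values of 11.11, 10.60 and 10.92 in NC, 9.26, 9.83 and 9.64 in NC+CCl4, 9.98, 10.03 and 10.58 in shLFAR1, and 10.17, 10.51 and 10.40 in shLFAR1+CCl4. The NC+CCl4 arrays were the lowest, as for Herpud1. In shLFAR1+CCl4 against NC+CCl4 it was 0.78 ± 0.19 higher (adjusted p = 0.0968) and not called, and its interaction was 1.46 ± 0.27 (adjusted p = 0.124). Of 13 genes of aminoacyl-tRNA synthetases and tRNA export, Sars fell by 0.51 and Cars by 0.48 log2 units, 2 called lower and 0 higher.

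The lists of the ER side stand beside the same 7.66% of all genes called higher and 5.41% lower, and beside 27.1% with an unadjusted p under 0.05. Of 16 sensor and eIF2 kinase genes none was called, with Ern1, the gene of IRE1, at -0.66 ± 0.22 (adjusted p = 0.0740) and Atf6 at -0.31 (adjusted p = 0.195), while 1 of the 16 had an unadjusted p under 0.05. Of 22 further ER chaperones and folding enzymes none was called and 3 had an unadjusted p under 0.05, led by Dnajc10 at 0.35 (adjusted p = 0.0643) and P4hb at 0.24 (adjusted p = 0.0664), and the median was -0.04. Of 17 genes of ER-associated degradation 1 was called higher, Edem1 at 0.47 ± 0.14 (adjusted p = 0.0470), a call lost in 12 of 19 alternatives. Of 23 secretory pathway genes 2 were called higher, Ostc at 0.55 and Ssr3 at 0.31 log2 units. In none of these 4 lists was a gene called lower. Of the 21 genes called in the wider lists, including those of the next paragraph, 5 kept their call when any single array of NC or NC+CCl4 was left out, namely Bbc3, Pck2, Slc38a2, Ostc and Ggct. Over all 19 alternatives the call was lost in 3 for Ostc, in 2 for Ggct and in 1 each for Bbc3, Pck2 and Slc38a2. The log2 change then went as low as 0.0712 for Ostc and 0.245 for Ggct. The 10 wider lists held 156 entries, with Slc7a11 in both the transporter and the glutathione list. Without array 1 of NC+CCl4, 9 of these entries were called higher and 5 lower, beside 12.1% of all genes. Among the calls lost there were Psat1 (adjusted p = 0.0872), Ddit4 (adjusted p = 0.0625), Aldh1l2 (adjusted p = 0.0651), Dnajb1 (adjusted p = 0.119) and Gclc (adjusted p = 0.0557).

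Neighbouring systems were measured too. Of 13 cytosolic heat shock genes, Dnajb1 fell by 1.08 ± 0.31 log2 units, and no other was called. Of 9 genes of glutathione synthesis and turnover, the pathway in which Chac1 acts, Ggct rose by 1.09 ± 0.24, while both subunits of the rate-limiting enzyme were lower, Gclc by a log2 change of -0.92 ± 0.26 and Gclm by -0.46 ± 0.13, each called. Gclc was also the lowest in shLFAR1+CCl4 on array 3, at 10.30, beside 11.48 and 11.19 on the others.

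In shLFAR1+CCl4 against NC+CCl4 and in shLFAR1+CCl4 against shLFAR1 no gene of any of these 10 lists was called on all 12 arrays. At an unadjusted p under 0.05 the first comparison held 5 of 21 ATF4 and CHOP targets, 7 of 12 amino acid and one-carbon genes and 1 of 22 ER chaperones, beside 14.2% of all genes. The second held 5, 2 and 7 of them, beside 10.8% of all genes. In the second, Cebpb, a partner of ATF4 on the C/EBP-ATF site, was at 0.90 ± 0.20 (adjusted p = 0.0824), the chaperone genes Hspa13 and Hyou1 at -0.58 (adjusted p = 0.0810) and -0.64 (adjusted p = 0.179), and the heat shock gene Hsph1 at -1.50 (adjusted p = 0.168). The median over the 22 ER chaperones was -0.16 there, beside -0.03 over all genes.

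The number of calls between the CCl4 groups changed with single arrays. Without array 2 of NC+CCl4, 546 genes were called in place of 53. Without array 3 of shLFAR1+CCl4, 7.29% of all genes were called in shLFAR1+CCl4 against NC+CCl4. Of the 156 entries of the 10 lists 2 were called higher and 7 lower, a share not above that of all genes. Psat1 fell by 2.05 ± 0.30 log2 units, Ddit4 by a log2 change of -1.69, Atf3 by -1.56, Aldh1l2 by -1.02 and Pck2 by -0.95. All of them were called higher in NC+CCl4 against NC, but that comparison shares the NC+CCl4 arrays, so no reversal is read. Ggct, at -0.95, and the glutathione synthetase gene Gss, at -0.64, were also called lower, and the ER co-chaperone gene Dnajc3 at 0.38 and the vesicle coat gene Sec24d at 0.37 were called higher. For the interaction 3.2% of all genes were then called. Of the 156 entries 3 were called higher and 3 lower, a share close to that of all genes. They were Psat1 at -1.99, Atf3 at -1.20, Ostc at -0.66, Slc38a2 at 1.44, Gclc at 1.07 and Cebpb at 1.02. In shLFAR1+CCl4 against shLFAR1 none of the 156 was called without this array either. The array was left out, and the genes of this paragraph were named, after the values were seen.

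**Figure D5:**
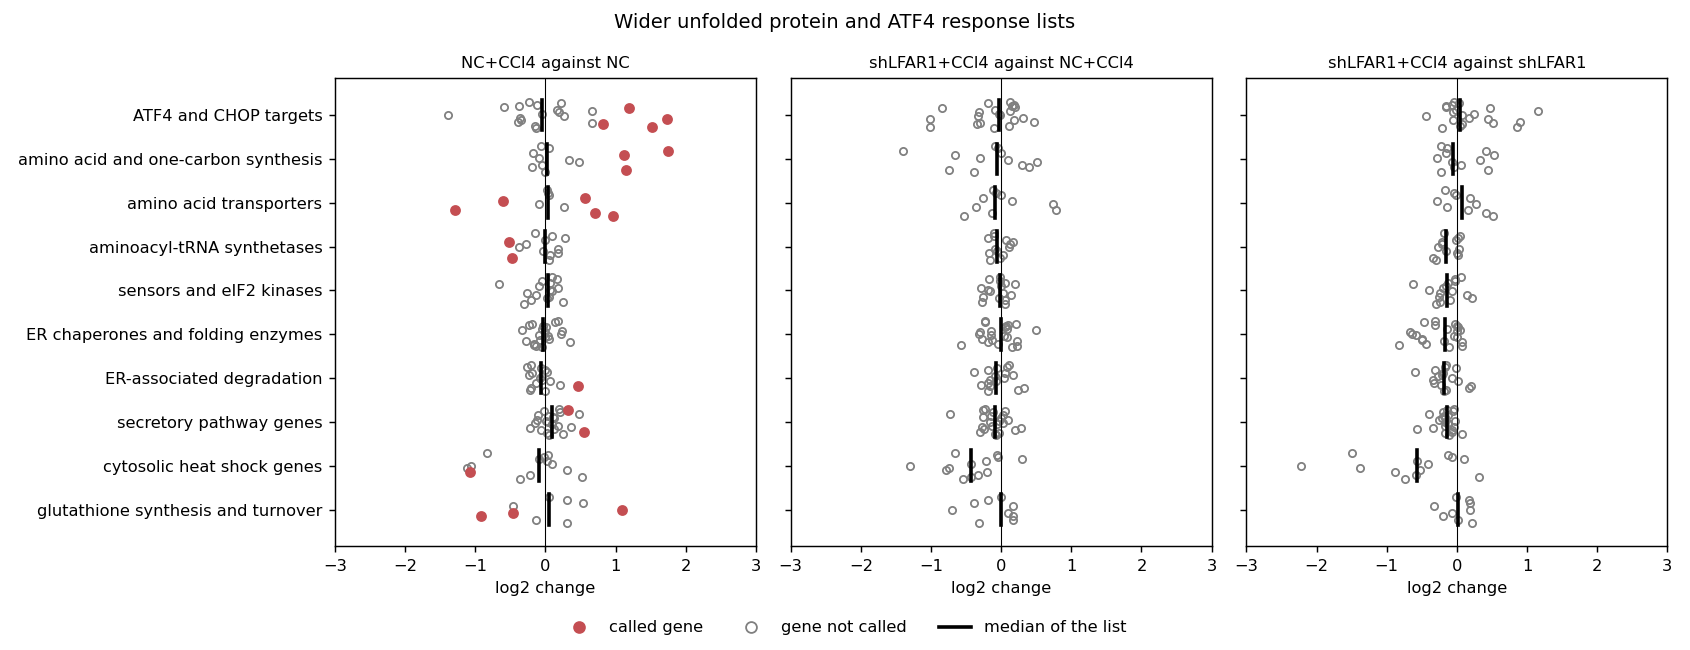
Log2 change (horizontal axis) of the genes of 10 wider lists (vertical axis) in 3 comparisons on all 12 arrays. Filled red points are called genes, open points are not called, and black bars are list medians. Called genes appear in the left panel only, most of them in the lists of ATF4 and CHOP targets, amino acid synthesis and transporters. Of all genes, 13.1% were called in that comparison.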

How the data were processed

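Total RNA from 12 livers, 3 per group by the labels, was measured on Affymetrix Mouse Genome arrays with 1 biotin-labelled sample each. The deposited values are log2 expression values between 1.81 and 14.5, and the summarization and normalization applied by the authors are not given in the sources used here. No column of values was left unmatched to a sample (0 unused). Array means were 5.10 to 5.11, so a change in total RNA per cell cannot be read. Of 45101 probe sets, 64 controls were left out; 34945 others carried 1 gene symbol, and those with several or none were not used.

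Genes were fitted with limma 3.58.1 in R 4.3.3 (lmFit, eBayes with intensity trend) on all 12 arrays and 4 groups, with 8 residual degrees of freedom, two-sided, with Benjamini-Hochberg adjustment over 18193 genes and calls at an adjusted p under 0.05. The methods of the study give a fold of 1.6 and a p threshold for the arrays, and Student's t-test for comparisons of a pair of groups in general. Because limma shares the spread over genes and groups it was used here, with the methods' t-test on the same values as an alternative. The number of arrays limits the precision, and the replicates are labelled as biological. Motifs were searched in Python 3.11.15 and plots drawn with matplotlib 3.10.9. The tests were tried on simulated data first.

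The members, gene lists and tests were chosen with earlier results of these data known. The rule for named genes took all 10 members, from each list the called genes with the largest changes (at most 4) or, where none was called, those with the smallest p, and the 5 genes most correlated with Chac1. Whether the numbers of replicates pair the arrays was checked on each array's deviation from its group mean. Same-numbered arrays of NC+CCl4 and shLFAR1+CCl4 correlated at 0.126, 0.229 and 0.192, so the numbers may pair these groups, from the data alone. The main fits used no pairing. The replicate block put the number into the fit of all 4 groups, so a pairing of the CCl4 groups alone was not fitted. Alternatives were normalization, filters, probe set choice, array weights, the replicate block, the fit on compared groups only and leaving out arrays.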

Additional observations from a re-analysis of the deposited data

How the results depend on the processing

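The lower level of Herpud1 in NC+CCl4 against NC kept its direction and its call under every alternative run except the methods' t-test with Benjamini-Hochberg adjustment (adjusted p = 0.145). The number of these genes called in that comparison, 1, became 2 with array weights (Atf4 added), 2 with the mean of all probe sets of a gene (Asns added), 0 by the methods' t-test with Benjamini-Hochberg adjustment, and 2 without NC+CCl4 array 1 and shLFAR1+CCl4 array 3 together (Trib3 added), an alternative chosen after seeing the data. Without single arrays it ran from 1 to 2. The count of 0 in shLFAR1+CCl4 against NC+CCl4 became 1 (Herpud1) by the methods' t-test at an unadjusted p and a 1.6-fold change, and ran from 0 to 1 without single arrays. For the interaction it ran from 0 to 1. It was 0 in shLFAR1+CCl4 against shLFAR1 and in shLFAR1 against NC under every alternative run. The ATF4 targets minus the chaperone genes in shLFAR1 turned from -0.221 to 0.0203 without Chac1 and ran from -0.329 to -0.0867 without single arrays. With the replicate number as a block over all groups no call of these genes changed, and Herpud1 in shLFAR1+CCl4 against NC+CCl4 had an adjusted p of 0.0635. The cause of these changes was not tested.

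Uncalled differences changed sign when single arrays were left out. In NC+CCl4 against NC the log2 change ran from -0.0687 to 0.548 for Ddit3, -0.156 to 0.00345 for Sesn2, -0.237 to 0.0349 for Hspa5 and -0.216 to 0.0847 for Xbp1. Between the CCl4 groups it ran from -0.126 to 0.0506 for Asns, -0.0404 to 0.133 for Sesn2 and -0.204 to 0.0137 for Hspa5. For shLFAR1+CCl4 against shLFAR1 it ran from -0.174 to 0.335 for Atf4, -0.179 to 0.25 for Ddit3, -0.0716 to 0.0705 for Sesn2, -0.315 to 0.0139 for Herpud1 and -0.117 to 0.427 for Xbp1. In shLFAR1 against NC it ran from -0.0508 to 0.0568 for Asns, -0.0708 to 0.00121 for Sesn2 and -0.244 to 0.226 for Dnajb9. For the interaction it ran from -0.477 to 0.140 for Ddit3, -0.141 to 0.0360 for Asns, -0.0124 to 0.161 for Sesn2, -0.388 to 0.0818 for Dnajb9 and -0.0708 to 0.473 for Xbp1. Quantile normalization gave 0.000916 for Asns in shLFAR1+CCl4 against NC+CCl4. Ddit3 in shLFAR1+CCl4 against shLFAR1 was at -0.130 with array weights and at -0.179 without both arrays, and Xbp1 in NC+CCl4 against NC at 0.0847 without both.

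Over all genes, the 2378 calls in NC+CCl4 against NC became 1263 without NC array 1, 1321 without NC array 2, and 280 by the methods' t-test after Benjamini-Hochberg adjustment (1262 at its own threshold). The 53 calls in shLFAR1+CCl4 against NC+CCl4 became 919 with array weights, 0 with only the compared groups or by the methods' t-test after adjustment (176 at its own threshold), 1541 without both arrays and 4 to 1327 without single arrays. The 74 calls in shLFAR1+CCl4 against shLFAR1 became 375 with array weights, 0 and 240 by the methods' t-test after adjustment and at its own threshold, 135 without both arrays and 23, at the fewest, without shLFAR1 array 3. The 0 calls in shLFAR1 against NC became 3 with only the compared groups and 31 at the threshold of the methods' t-test. The 4 calls for the interaction became 393 with array weights, 10 with genes above the median level only, 2 with the mean of probe sets, 776 without both arrays and 0 to 583 without single arrays. With the replicate block the counts were 2440, 55, 97, 0 and 4. The 3 arrays per group limit the precision of every value.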
